A study of Homo sapiens with 18 samples.

Results

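The difference between siRNA arms in the transcriptional response to estradiol (E2) was described in PEO1 cells, an ovarian cancer cell line. All 18 of the 18 samples entered, in 6 groups of 3. Cells were transfected with siControl, the control siRNA, or with sip53, which targets p53, and were kept in phenol red-free medium with charcoal-stripped serum for 48 h. They were then left untreated (0 h) or given 10 nM E2 for 2 h or 8 h. No group was kept for 2 h or 8 h without E2. An effect of E2 and an effect of time or handling therefore cannot be told apart, and a response to E2 here means the change from 0 h. The siRNA sequences are not given in the sources used here, and a single cell line with a single siRNA label per arm was studied, so an effect of losing p53 and an effect of the reagent cannot be told apart. The series title asks about mutant p53 and the activity of the estrogen receptor.

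E2 binds estrogen receptor alpha, the product of ESR1, a nuclear receptor that then binds DNA at estrogen response elements or through other transcription factors and recruits coactivators. p53 is a transcription factor that activates genes of cell-cycle arrest, DNA repair and apoptosis, and many ovarian carcinomas carry mutant forms of it. The quantity described here is a difference of differences, namely the log2 change with E2 in sip53 minus the log2 change with E2 in siControl. A positive value means that the response was more positive in sip53. A rise could be larger, a fall could be smaller, or the arms could change in opposite directions. The 2 h and 8 h differences share all 6 samples at 0 h, so they are not independent of each other.

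Libraries read the 3′ ends of transcripts, and total counts were 7542457 to 11307199 per sample. Levels are in CPM, the count of a gene per 1e6 counts of its library, after scaling of the libraries. The marker levels in this paragraph were taken without that scaling. Of the defining markers, the epithelial genes EPCAM, KRT7, KRT8, KRT18 and KRT19 and the Müllerian factor PAX8 lay at 94.3 CPM or more in every sample. The ovarian carcinoma markers MUC16 (22.8 to 55 CPM), WFDC2 (18 to 37.5), MSLN (15.5 to 33.6) and WT1 (6.5 to 15.5) were lower. FOLR1, often high in serous carcinoma, had 2 counts in all, and DCN, LUM, PTPRC, CD3D and CD3E had 0 counts in every sample. Other markers of fibroblasts and leukocytes were read in every sample, with THY1 at 80.7 to 139.6 CPM, FAP at 7.26 to 17.6 and CD14 at 4.07 to 9.23. Of the fibroblast, leukocyte and endothelial markers, 3 of 11, 2 of 12 and 1 of 10 passed the filter on low counts. The 30 epithelial markers summed to between 7687 and 8713 CPM after siControl and between 8818 and 10835 CPM after sip53, and their part in the differences was not tested. Library siControl 0 h replicate 2 had the lowest depth and the largest root mean square log2 distance from its fellow replicates, at 0.415. Close to it were siControl 0 h replicate 1 at 0.397 and sip53 0 h replicate 1 at 0.388, against 0.237 to 0.357 in the other libraries. The 0 h libraries enter every difference from 0 h. Where leaving out 1 library moved a gene's difference by over 1.5 times or turned its sign, values from the 18 fits without single libraries are given beside it. The labels do not say that replicates came from separate cultures, so the p-values may reflect technical spread alone.

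No gene passed the test for a difference in response between the arms. Of 15318 genes tested, 0 (0%) had an adjusted p under 0.05 at 2 h, at 8 h, in a joint test of both times, or in the change from 2 h to 8 h, which uses no 0 h sample (edgeR quasi-likelihood test with Benjamini-Hochberg adjustment). The smallest adjusted p was 0.9999 at 2 h and 0.559 at 8 h. At an unadjusted p under 0.05 stood 451 genes (2.94%) at 2 h, of which 203 had a more positive and 248 a more negative response in sip53. At 8 h these were 583 genes (3.81%), 296 more positive and 287 more negative. The joint test had 459 such genes (3%) and the change from 2 h to 8 h 508 (3.32%). Each of these shares was under 0.05 of the genes, the share that this threshold gives on average where no gene differs. The median difference over all genes was -0.018 log2 at both times.

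Without siControl 0 h replicate 2 the calls were again 0 at both times, with 448 and 553 genes at an unadjusted p under 0.05. Without siControl 0 h replicate 1 the calls were 0 too, with 793 genes at 2 h, 1088 at 8 h and 784 in the joint test at that p. DESeq2 called 1 gene at 2 h, 2 at 8 h and 0 in the other tests, and limma-voom called 0 in all 4. A fit without the filter on low counts called 36 genes at 2 h and 54 at 8 h, of which 36 and 52 also passed the filter. In that fit the estimated prior degrees of freedom were infinite, so each gene took the spread of the common trend in place of its own.

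The size of difference that could be shown depended on the gene's level. Over all genes the median half-width of the 95% interval of the 2 h difference was 0.56 log2, a 1.48-fold difference in response. It was 2.12 log2 for genes with a mean level under 1 log2 CPM, 1.05 for 1 to 3, 0.55 for 3 to 5, 0.37 for 5 to 7 and 0.31 for over 7. A single gene would have needed an unadjusted p of 3.26e-06 to be called. The estimated difference that just gives this p was 1.67 log2 for the median gene, 1.64 at a level of 3 to 5 log2 CPM, 1.09 (2.13-fold) at 5 to 7 and 0.91 (1.88-fold) at over 7. Had 100 genes reached their p together, the estimate needed would have been 1.13, 0.76 and 0.63 log2 in those classes. A true difference of just these sizes would often be estimated as smaller and so be missed. The 8 h half-widths were 0.55, 0.37 and 0.31 log2 in the upper 3 classes.

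**Figure D1:**
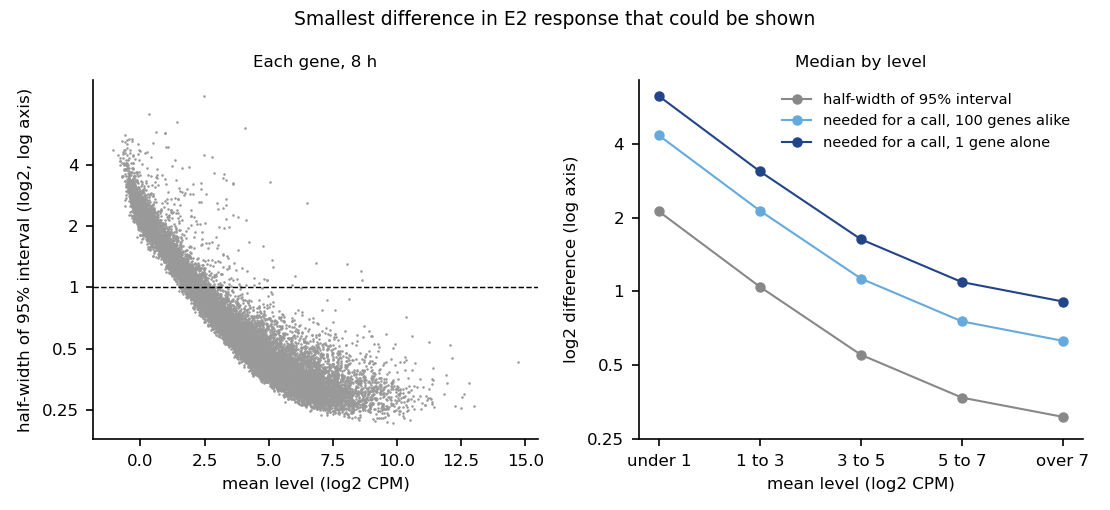
Left, the half-width of the 95% interval of the 8 h difference in E2 response (log2, log axis) for each gene against its mean level (log2 CPM), with a dashed line at 1. Right, medians by class of level of that half-width and of the estimated log2 difference needed for a call, for 1 gene alone and for 100 genes alike. All 3 lines fall with level, from 2.12 to 0.31 log2 for the half-width.

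Large differences in response can be bounded for most well-expressed genes. The 95% interval lay within 1 log2 unit of zero, a 2-fold difference in response, for 9526 genes at 2 h (62.2%) and 9410 at 8 h (61.4%). At a level of 5 to 7 log2 CPM it did so for 98.6% and 98.3% of genes, and above 7 for 99.4% at both times. A bound of 0.5 log2 was met by 50.8% and 51% of genes at 5 to 7 and by 76.8% and 75.8% above 7. Below 1 log2 CPM, 0 genes met the bound of 1 at either time, so for weakly expressed genes a 2-fold difference in response was not detectable at this depth.

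E2-responsive genes were chosen by the mean of the E2 effects of the arms, so that neither arm weighed more in the choice. At 2 h this effect was called higher for 135 genes (0.881%) and lower for 71 (0.464%), and at 8 h higher for 791 (5.16%) and lower for 680 (4.44%). The 2 h total of 206 became 618 without siControl 0 h replicate 1, 119 without replicate 2 of that group, 137 without siControl 2 h replicate 2, 117 without sip53 2 h replicate 1 or 2, and 136 without its replicate 3. All 206 and all 1471 had the same sign in both arms, which the choice by the average largely fixes. The median response in the called direction was 0.54 log2 in siControl and 0.51 in sip53 at 2 h, and 0.49 and 0.47 at 8 h. The response was larger in sip53 for 96 of the 206 genes at 2 h (46.6%), beside 45.6% of all genes, and for 692 of the 1471 at 8 h (47%), beside 47% of all genes. The median difference, signed by the averaged effect, was -0.022 log2 at 2 h and -0.018 at 8 h, beside -0.029 and -0.020 over all genes.

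The sign of that median rests on single libraries. Without siControl 0 h replicate 2 it was 0.069 at 2 h and 0.038 at 8 h, and without siControl 0 h replicate 1 it was -0.206 and -0.127. The highest 2 h value was 0.072, without sip53 0 h replicate 3. Among the E2-responsive genes, 19 of 206 (9.22%) at 2 h and 100 of 1471 (6.8%) at 8 h had an unadjusted p under 0.05 for the difference, beside 2.94% and 3.81% of all genes. The choice of these genes used the same estimates of spread as the test of the difference and favours a small spread. Nothing is therefore read from the higher shares. Median half-widths over the E2-responsive genes were 0.43 log2 at 2 h and 0.45 at 8 h, against 0.56 over all genes at both. Those with an averaged effect of at least 1 log2 had wider intervals, with median half-widths of 0.91 for 38 genes at 2 h and 1.31 for 203 at 8 h. Of these, 12 and 32 had an interval within 1 log2 unit, and the median signed difference was 0.233 log2 at 2 h and 0.004 at 8 h. For 46 of the 206 genes and 244 of the 1471 a difference as large as the averaged response itself, in either direction, lay outside the interval.

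**Figure D2:**
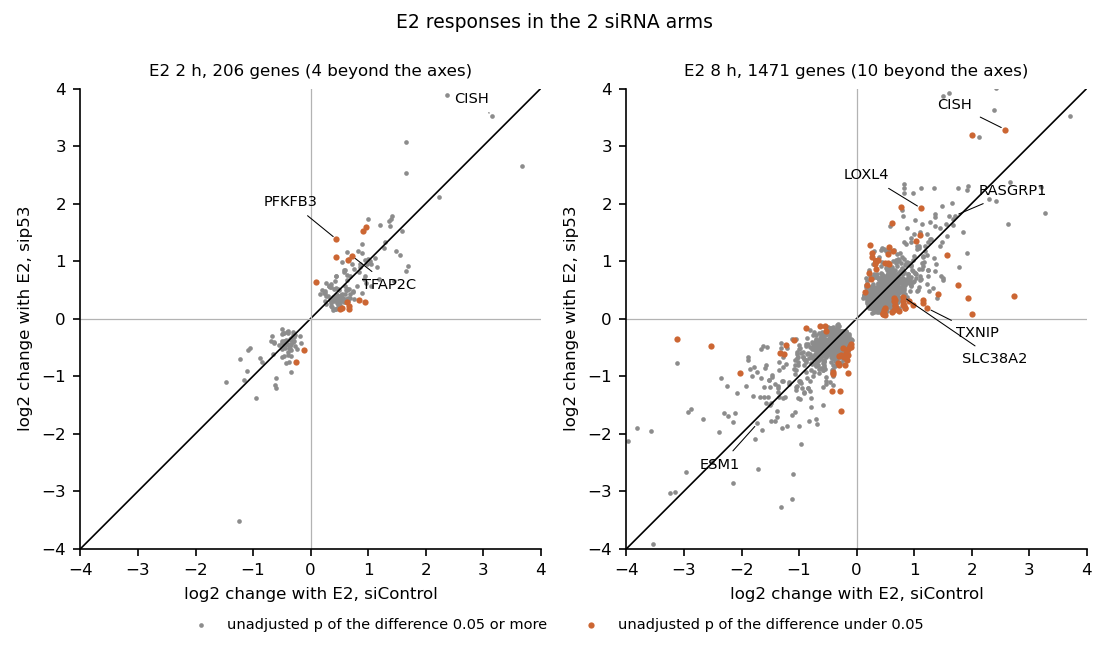
Log2 change with E2 in sip53 (vertical) against siControl (horizontal) for the 206 genes called for the averaged E2 effect at 2 h (left) and the 1471 called at 8 h (right), each point 1 gene, with the line of equal response. Orange points (19 and 100) have an unadjusted p under 0.05 for the difference, and the other points scatter on both sides of the line.

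Separate tests in each arm gave lists that overlap in part, although no difference was called. At 2 h E2 called 35 genes in siControl and 47 in sip53, 21 of them in both (60% and 44.7% of the lists). At 8 h these were 399 and 419 genes with 177 in both (44.4% and 42.2%). Of the 222 genes called at 8 h in siControl but not in sip53, 209 had the same sign in sip53, and 65 had an unadjusted p under 0.05 for the difference. Of the 242 called in sip53 but not in siControl, 237 had the same sign in siControl, and 56 had such a p. Over all 15318 genes, 10404 had the same sign in both arms at 8 h and 583 (3.81%) had such a p. The sets were chosen by the changes that make up the difference, so nothing is read from these counts. The difference between the arms passed the test for 0 genes of either set.

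CISH, which encodes a feedback inhibitor of cytokine receptors that signal through JAK2 and STAT5, had the largest averaged E2 rise at both times among genes with a mean level of at least 3 log2 CPM, at 3.35 log2 at 2 h and 2.93 at 8 h. Its level at 0 h was 2.7, 1.92 and 1.71 CPM in siControl and 1.8, 2.35 and 2.8 CPM in sip53. After 2 h of E2 it was 18.5, 16.6 and 22.7 CPM in siControl and 26.5, 26 and 28 in sip53, and after 8 h 10.4, 13.7 and 14.4 against 22.2, 19.7 and 26.1. The arms overlapped at 0 h, and all 3 sip53 samples lay above all 3 siControl samples at 2 h and at 8 h. The log2 rise was 3.16 ± 0.23 (SE) in siControl and 3.53 ± 0.22 in sip53 at 2 h, and 2.58 ± 0.24 against 3.29 ± 0.22 at 8 h. The difference was 0.37 ± 0.32 at 2 h (unadjusted p = 0.265) and 0.71 ± 0.32 at 8 h (unadjusted p = 0.04, adjusted p = 0.999), with a 95% interval of 0.04 to 1.38 at 8 h. Without single libraries the difference ran from 0.118 to 0.516 at 2 h and from 0.456 to 0.855 at 8 h, the lower ends without siControl 0 h replicate 1. Without replicate 2 of that group the 8 h value was 0.75.

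The CISH promoter is shown because it holds a repeated motif that few promoters hold. The sequence covers positions -250 to -61 from the RefSeq start site (GRCh38.p14, chr3:50611835-50612024, minus strand), and capitals mark matches to the STAT motif TTCNNNGAA, which reads the same on both strands.
CISH: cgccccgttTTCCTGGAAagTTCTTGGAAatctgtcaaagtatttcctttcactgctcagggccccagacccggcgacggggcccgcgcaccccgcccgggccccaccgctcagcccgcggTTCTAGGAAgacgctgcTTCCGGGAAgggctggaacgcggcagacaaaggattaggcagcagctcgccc
It held 4 matches, starting at positions -241, -230, -129 and -112. A match was found in 6.57% of the 35116 RefSeq windows of 250 bases, and 4 or more in 5 windows. Among the windows of genes called higher in the averaged effect, 6.45% had a match at 2 h and 5.9% at 8 h, and among the 15921 windows of all genes tested 5.46% had one. The full estrogen response element GGTCANNNTGACC was in 0 of the 155 windows at 2 h and 0 of the 916 at 8 h, beside 14 of all windows (0.0399%) and 2 of those of genes tested (0.0126%). Its single arm AGGTCA, searched on both strands, was in 7.74% and 8.3% of those windows, in 8.93% of those of genes tested and in 12.1% of all. Receptor binding away from start sites was not measured.

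RASGRP1, an activator of Ras proteins, rose in both arms by 8 h. It was at 14.1, 14.1 and 17.3 CPM in siControl and 20.4, 16.9 and 17.6 in sip53 at 0 h. At 8 h it was at 52.6, 54.5 and 42.3 CPM in siControl and 58, 70.2 and 61.7 in sip53. The arms overlapped at 0 h, and all 3 sip53 samples lay above all 3 siControl samples at 8 h. The rise was 1.71 ± 0.13 log2 in siControl and 1.79 ± 0.13 in sip53, and the difference was 0.08 (95% interval -0.31 to 0.46), or -0.021 to 0.157 without single libraries. This interval is narrow beside the averaged rise of 1.75. The organic cation transporter SLC22A3 rose by an averaged 1.69 log2 at 8 h with a difference of 0.17 ± 0.26, and LONRF2, a RING finger protein, by 1.83 with a difference of 0.35 ± 0.25. Without single libraries the SLC22A3 difference ran from 0.051 to 0.361 and that of LONRF2 from 0.234 to 0.493.

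SLC22A5, the carnitine transporter, was at 19.9, 21.8 and 22.5 CPM in siControl and 36.5, 39.5 and 47.4 in sip53 at 8 h, from 10.2, 5.52 and 8.92 against 12.7, 9.95 and 13.6 at 0 h. The arms did not overlap at 8 h, and the difference in response was 0.40 ± 0.24 (unadjusted p = 0.115), with 0.188 without siControl 0 h replicate 1 and 0.589 without its replicate 2 as the ends of the range. RETREG1, a receptor for selective autophagy of the endoplasmic reticulum, was higher at 2 h than at 8 h in every sample of each arm. It was at 69.5, 76.2 and 82.3 CPM in siControl and 129.7, 133.0 and 129.8 in sip53 at 2 h. At 0 h it was at 25.8, 28.2 and 33.4 CPM in siControl and 38.3, 46.8 and 44 in sip53. Its rise was 1.39 ± 0.12 against 1.61 ± 0.12 log2, a difference of 0.22 ± 0.17 (unadjusted p = 0.205), or 0.125 to 0.295 without single libraries. SOX7, a transcription factor, rose by an averaged 1.56 log2 at 2 h with a difference of 0.33 ± 0.29. The SOX7 value ran from 0.064 without siControl 0 h replicate 2 to 0.555 without its replicate 1.

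Among genes lowered by E2 at 8 h, the endothelial proteoglycan ESM1 had one of the largest averaged falls. It was at 49.3, 34.8 and 44 CPM in siControl at 0 h and 15.8, 10.7 and 12.4 at 8 h. In sip53 it was at 20.3, 17.6 and 20.7 CPM at 0 h and 4.89, 4.98 and 6.74 at 8 h. The arms were apart at both times, yet the fold was close: the change was -1.72 ± 0.16 in siControl and -1.82 ± 0.18 log2 in sip53, a difference of -0.09 (95% interval -0.60 to 0.41), or -0.240 to 0.073 without single libraries. EFNB2, an ephrin ligand, had an averaged change of -1.12 log2 and a difference of -0.12 ± 0.38. The purinergic receptor P2RY11 had an averaged change of -1.28 and a difference of 0.17 ± 0.36. For the kinase WNK4 the averaged change was -1.58 and the difference 0.45 ± 0.62, too wide to bound at a 2-fold difference. The sign of all 3 values rests on single libraries, without which they ran from -0.480 to 0.228 for EFNB2, from -0.110 to 0.368 for P2RY11 and from -0.575 to 0.869 for WNK4. Without siControl 0 h replicate 2, they were -0.217, -0.110 and 0.134.

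**Figure D3:**
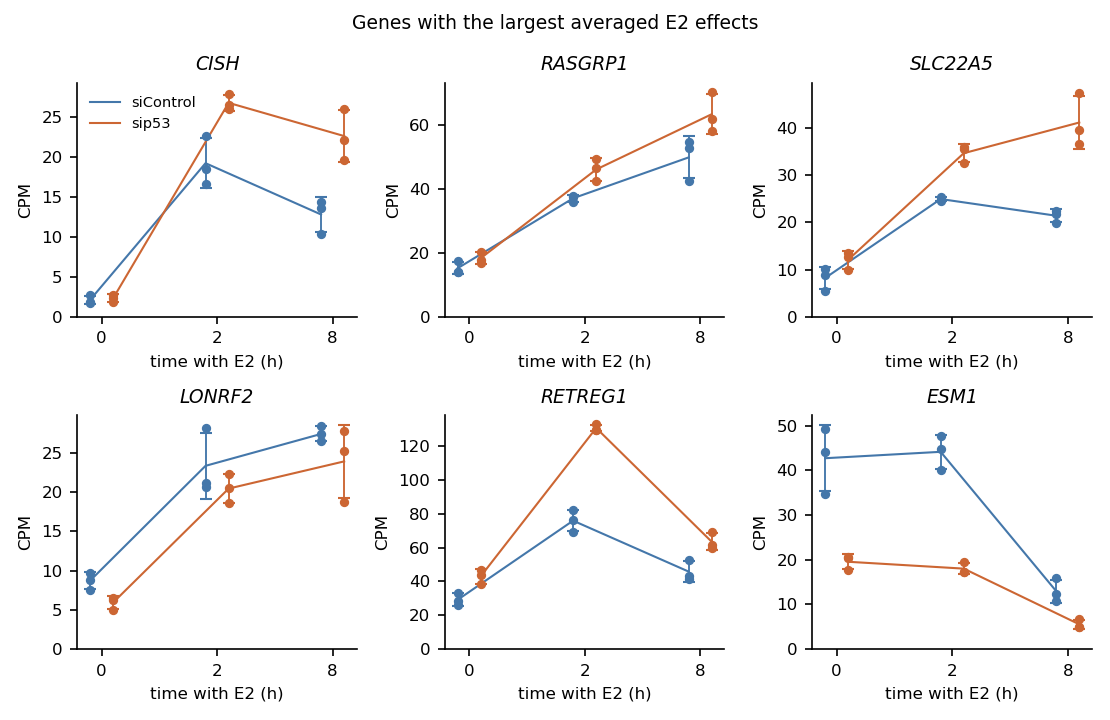
Level (CPM) of 6 genes with large averaged E2 effects by time with E2 (h, evenly spaced), with 3 samples per point set, lines through group means and bars of 1 SD, siControl in blue and sip53 in orange. CISH reaches 26 to 28 CPM in sip53 and 16.6 to 22.7 in siControl at 2 h, and ESM1 falls in both arms from different starting levels.

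The genes nearest to a difference at 8 h were taken by the smallest unadjusted p among genes with a mean level of at least 3 log2 CPM, and are given as values. TXNIP, which encodes a thioredoxin-binding protein that limits glucose uptake, stood nearest on the negative side (chromosome 1, 145992435 to 145996600 on GRCh38). It was at 20.8, 17.7 and 23.7 CPM in siControl at 0 h, 22.7, 23.1 and 21.2 at 2 h and 47.8, 59.5 and 39 at 8 h. In sip53 it was at 21.3, 14.5 and 18.9 CPM at 0 h, 14.1, 16.6 and 12.2 at 2 h and 19.4, 21.5 and 20.9 at 8 h. The arms overlapped at 0 h and were apart at 2 h and at 8 h. TXNIP rose by 1.23 ± 0.17 log2 in siControl at 8 h (adjusted p = 8.07e-05), and its change in sip53 was 0.18 ± 0.17 (adjusted p = 0.694). The difference was -1.05 ± 0.24 (95% interval -1.54 to -0.57, unadjusted p = 0.000186, adjusted p = 0.999). Leaving out single libraries gave -1.19 to -0.89, with -0.97 without siControl 0 h replicate 2. The fit without the low-count filter gave TXNIP an adjusted p of 0.00806. In that fit each gene took the spread of the common trend in place of its own. Its 54 calls at 8 h also held LOXL4 (adjusted p = 0.0459), SNHG20 (0.0459) and DDX12B (0.0337), which are described below.

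The TXNIP promoter is shown for its paired E-box element, the carbohydrate response element bound by MondoA and ChREBP, which is a known control point of the gene. RefSeq gives 2 start sites for it. The sequence covers positions -250 to -61 from the upstream one (GRCh38.p14, chr1:145996640-145996829, minus strand), with the match to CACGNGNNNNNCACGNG in capitals.
TXNIP: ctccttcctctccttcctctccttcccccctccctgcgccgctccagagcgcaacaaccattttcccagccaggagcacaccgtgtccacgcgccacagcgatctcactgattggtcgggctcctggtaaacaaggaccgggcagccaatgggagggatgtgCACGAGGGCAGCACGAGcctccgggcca
The match started at position -88, and the window of the other start site held 0 matches. The motif, searched on both strands, was in 0.0456% of all RefSeq windows, in 0.0754% of those of genes tested and in 0.218% of those of genes called higher at 8 h. ARRDC4, a related arrestin gene whose 1 window held 0 matches, was near 1 CPM in every group, and its 8 h difference was 1.24 ± 0.81 (unadjusted p = 0.134).

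NPC1, the lysosomal cholesterol exporter, was at 42.4, 43 and 42 CPM in siControl at 0 h and 59.2, 63.9 and 65.8 in sip53. At 8 h it was at 48.1, 53.6 and 54.6 CPM in siControl and 48.4, 47.1 and 56.5 in sip53. The arms were apart at 0 h and overlapped at 8 h, since all siControl samples were higher than at 0 h and all sip53 samples lower. The difference was -0.61 ± 0.15 log2 (95% interval -0.91 to -0.31, unadjusted p = 0.00038, adjusted p = 0.999). FOXO1, a forkhead transcription factor held in check by insulin and AKT signalling, also started apart. It was at 17.3, 16 and 13.8 CPM in siControl and 26.1, 24.2 and 21 in sip53 at 0 h, and at 20.1, 17.6 and 17.6 against 17.1, 16.2 and 16.4 at 8 h. The sip53 samples lay above the siControl samples at 0 h and just below them at 8 h, and the difference was -0.75 ± 0.20 (unadjusted p = 0.000984).

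SLC38A2, a transporter of neutral amino acids induced by the ATF4 stress response, rose in both arms and by unequal amounts. It was at 518.7, 518.9 and 549.2 CPM in siControl and 549.1, 608.4 and 641.0 in sip53 at 0 h. At 8 h it was at 852.1, 1030 and 901.8 CPM in siControl and 747.2, 827.7 and 771.1 in sip53, and the arms no longer overlapped. The rise was 0.81 ± 0.09 log2 in siControl (adjusted p = 3.39e-06) and 0.38 ± 0.09 in sip53 (adjusted p = 0.0145), and the difference -0.43 ± 0.12 (95% interval -0.68 to -0.17, unadjusted p = 0.00204, adjusted p = 0.999). The corepressor IRF2BP2 had a difference of -0.40 ± 0.11. For NME1-NME2, a read-through of neighbouring genes, the value of -1.23 ± 0.33 is uncertain because reads of the single genes may be split among the 3 models.

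On the positive side at 8 h, LOXL4, a lysyl oxidase that crosslinks collagen, rose in both arms. It was at 18.7, 26.3 and 17.3 CPM in siControl and 23.5, 20.7 and 23.5 in sip53 at 0 h. At 8 h it was at 44.4, 36.5 and 54.3 CPM in siControl and 88.8, 75.5 and 92.1 in sip53. The arms overlapped at 0 h and were apart at 2 h and 8 h. The rise was 1.12 ± 0.17 log2 in siControl and 1.92 ± 0.16 in sip53, and the difference 0.80 ± 0.24 (95% interval 0.31 to 1.29, unadjusted p = 0.00252, adjusted p = 0.999), or 0.58 without siControl 0 h replicate 2.

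SNHG20, a long noncoding host gene of small nucleolar RNAs, had the smallest p on that side. It was at 13, 15.5 and 11.7 CPM in siControl and 7.49, 7.81 and 7.46 in sip53 at 0 h, and at 12.1, 7.69 and 9.83 against 15, 12.4 and 13.2 at 8 h. The order of the arms turned between 0 h and 8 h, and the difference was 1.28 ± 0.29 (unadjusted p = 0.000218, adjusted p = 0.999). E2F6, a repressive member of the E2F family, was at 40.3, 44.4 and 47.6 CPM in siControl and 36.8, 33 and 33.4 in sip53 at 0 h. Its difference was 0.57 ± 0.17 at 8 h and 0.47 ± 0.17 at 2 h. DDX12B is a pseudogene with close copies, and its value of 1.41 ± 0.41, or 0.94 without siControl 0 h replicate 2, is uncertain.

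At 2 h, PFKFB3, whose product makes the fructose 2,6-bisphosphate that drives glycolysis, stood nearest to a more positive response in sip53 (chromosome 10, 6144934 to 6254644). It was at 8.91, 11.5 and 8.19 CPM in siControl and 7.39, 7.06 and 8.71 in sip53 at 0 h, and at 13.9, 11.1 and 14.1 against 20.4, 21.6 and 18.4 at 2 h. The arms overlapped at 0 h, were apart at 2 h, and at 8 h all samples were back between 8.93 and 9.78 CPM. The change was 0.45 ± 0.17 log2 in siControl (adjusted p = 0.336) and a rise of 1.38 ± 0.17 in sip53 (adjusted p = 4.77e-05). The difference was 0.93 ± 0.24 (95% interval 0.42 to 1.44, unadjusted p = 0.000948, adjusted p = 1), or 0.76 without siControl 0 h replicate 2.

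The coagulation initiator F3 rose at 2 h in both arms. F3 was at 61.9, 39.5 and 56.8 CPM in siControl and 28.3, 28 and 26 in sip53 at 0 h, and at 89.5, 97.1 and 111.5 against 82.1, 79.6 and 74.5 at 2 h. The arms of F3 were apart at 0 h by more than at 2 h, so its larger fold in sip53 (1.52 ± 0.14 against 0.91 ± 0.14) started from a lower level. TFAP2C, a transcription factor that shapes estrogen receptor binding in breast cancer cells, rose by 0.72 ± 0.09 in siControl and 1.09 ± 0.09 in sip53, a difference of 0.37 ± 0.13 (unadjusted p = 0.00767, adjusted p = 1).

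On the negative side at 2 h stood IGFBP3, a binding protein of insulin-like growth factors. It was at 655.0, 380.2 and 612.1 CPM in siControl at 0 h and 631.0, 621.0 and 677.7 at 2 h, against 407.4, 397.9 and 372.5 and then 295.5, 308.0 and 300.8 in sip53. Its lowest siControl value at 0 h belongs to replicate 2, the library of lowest depth, and the difference of -0.61 ± 0.19 (unadjusted p = 0.00421, adjusted p = 1) became -0.42 without it. PPP1R26, a regulatory subunit of protein phosphatase 1, had a difference of -1.20 ± 0.32 at a level of 4.53 to 10.6 CPM at 0 h and 2 h. RNF13, a membrane-bound ubiquitin ligase, had one of -0.51 ± 0.16. NPIPB11 belongs to a family of near-identical copies and had 0 counts in all sip53 samples at 2 h and 8 h, and no fold is given for it.

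**Figure D4:**
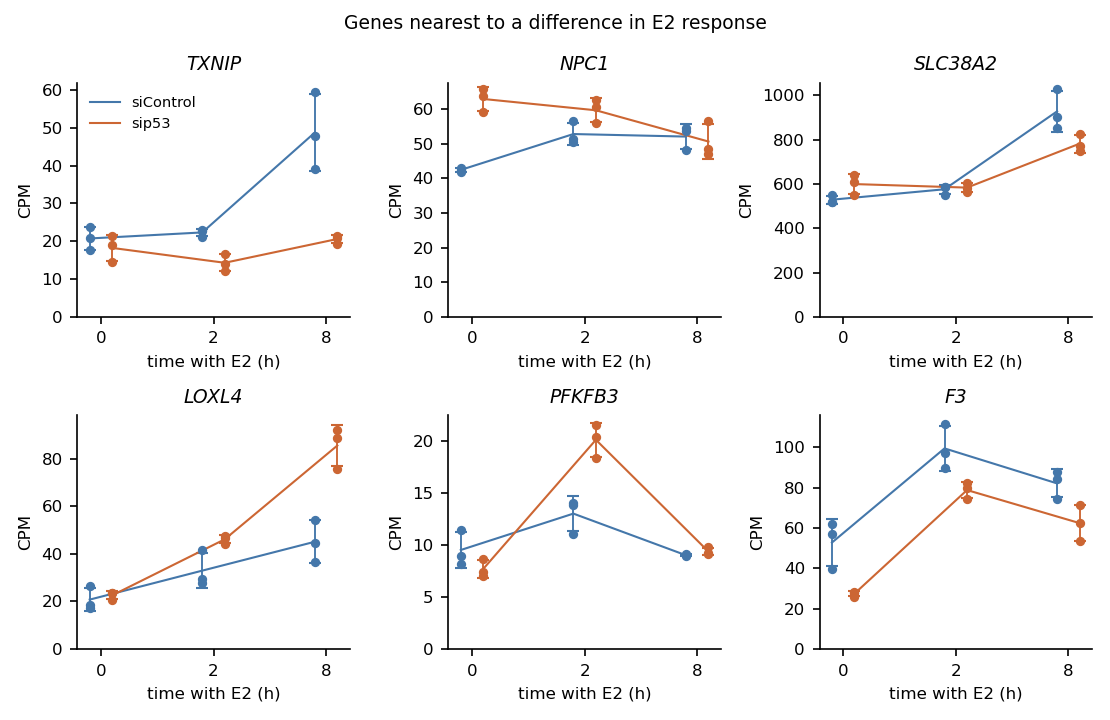
Level (CPM) of 6 genes with a small unadjusted p for the difference in E2 response, by time with E2 (h, evenly spaced), with 3 samples per point set, lines through group means and bars of 1 SD. TXNIP at 8 h lies between 39 and 59.5 CPM in siControl and between 19.4 and 21.5 in sip53, while NPC1 and F3 differ most between the arms at 0 h.

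A difference in response can come from the arms drawing together or moving apart. Among the 451 genes at an unadjusted p under 0.05 at 2 h, the gap between the arm means was wider at 0 h than at 2 h in 221 (49%), and among the 583 at 8 h it was wider at 0 h in 306 (52.5%). Over all genes these shares were 48.6% and 51.3%. NPC1, FOXO1 and F3 drew together, and TXNIP, LOXL4 and PFKFB3 moved apart.

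The receptor and its classical targets showed no difference past the threshold. ESR1 was at 57.2, 78.1 and 66.3 CPM in siControl and 97.5, 92.7 and 96.1 in sip53 at 0 h, and its difference in response was -0.13 ± 0.17 log2 at 2 h and -0.07 ± 0.17 at 8 h (95% interval -0.42 to 0.28). Without single libraries these ran from -0.274 to 0.036 and from -0.207 to 0.026, the lower ends without siControl 0 h replicate 2. GREB1, a receptor cofactor and one of the most E2-sensitive genes of breast cancer cells, was at 0.489 to 6.04 CPM in all samples. Its averaged rise at 8 h was 1.31 ± 0.33, but the interval of its difference ran from -0.96 to 1.77, so a 2-fold difference was not detectable at this depth. That difference was 0.40, or -0.356 to 0.890 without single libraries. PGR, the progesterone receptor gene, did not pass the filter on low counts.

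Better-expressed targets gave narrower bounds. STC2, a secreted glycoprotein, was at 493.4, 499.8 and 459.7 CPM in siControl and 327.1, 351.6 and 363.0 in sip53 at 0 h, and at 910.3, 1045 and 945.7 against 710.4, 777.5 and 720.5 at 8 h. The arms were apart at every time and the rise was 1.00 ± 0.08 and 1.08 ± 0.08 log2, a difference of 0.09 (95% interval -0.16 to 0.33). XBP1, a transcription factor of secretory cells, rose by 0.73 ± 0.09 and 0.65 ± 0.09 at 8 h, a difference of -0.08 (-0.35 to 0.19). The cyclin gene CCND1 had an averaged rise of 0.32 at 8 h and a difference of 0.17 (-0.14 to 0.48). AREG, an EGF receptor ligand, had an averaged rise of 0.41 at 8 h and a difference of -0.39 (-0.88 to 0.10). Without single libraries the 8 h difference ran from 0.042 to 0.145 for STC2, from -0.135 to -0.015 for XBP1, from 0.035 to 0.232 for CCND1 and from -0.530 to -0.171 for AREG.

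Over the 58 estrogen-induced genes measured, 9 were called higher in the averaged effect at 2 h and 25 at 8 h, beside 0.881% and 5.16% of all genes. The median difference in response was -0.038 log2 at 2 h and 0.015 at 8 h, beside -0.018 for all genes. Without single libraries the 2 h value ran from -0.1 to 0.002. As the difference of group means of each sample's median over the list, it was -0.014 and 0.070 with an SE of 0.049. The test of the difference called 0 members. At an unadjusted p under 0.05 stood 2 at 2 h (3.45%, both more negative) and 4 at 8 h (6.9%, 2 in each direction), beside 2.94% and 3.81% of all genes. One of these, IGFBP4, went from 185.2, 197.4 and 191.6 to 222.1, 185.4 and 224.4 CPM in siControl by 8 h and from 170.2, 194.0 and 202.7 to 239.4, 283.1 and 260.4 in sip53. Its difference was 0.33 ± 0.14 (unadjusted p = 0.0253). Among the 32 receptors and cofactors the lowest p at 8 h was that of the coactivator NCOA3, at -0.41 ± 0.17. Over the 22 estrogen-repressed genes measured, 0 were called and the median differences were -0.083 at 2 h and -0.158 at 8 h. From the sample medians these were -0.039 and -0.069 with an SE of 0.125. At 8 h 2 members (9.09%) had an unadjusted p under 0.05, both more negative. The member of lowest p at 8 h was TXNIP, which here rose in siControl.

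For p53-activated targets, 49 of the list were measured and 0 were called. The median difference was -0.088 log2 at 2 h and -0.150 at 8 h, with -0.045 without sip53 2 h replicate 1 and -0.085 without siControl 8 h replicate 2 as the values nearest 0. Taken instead as the difference of group means of each sample's median over the list, it was -0.075 and -0.006 with an SE of 0.067, so the 8 h value depends on the summary. Unadjusted p was under 0.05 for 3 members at each time, all more negative (6.12%, beside 2.94% and 3.81% of all genes). CDKN1A, the cell-cycle inhibitor p21, was at 21.7, 26.3 and 18.8 CPM in siControl and 12.4, 13.4 and 14.9 in sip53 at 0 h, and at 26.7, 24.2 and 22.2 against 11.7, 9.58 and 10 at 2 h. The arms were apart at both times, and its difference was -0.50 ± 0.24 at 2 h (unadjusted p = 0.0484) and -0.27 ± 0.24 at 8 h, the latter from -0.461 to -0.121 without single libraries.

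BBC3, the proapoptotic protein PUMA, was at 54.1, 47.1 and 50.5 CPM in siControl and 49.1, 54.6 and 57.1 in sip53 at 0 h, and at 79.4, 88.1 and 73.4 against 53.2, 65.2 and 68.3 at 8 h. It rose by 0.67 ± 0.11 log2 in siControl, with a change of 0.21 ± 0.11 in sip53 and a difference of -0.45 ± 0.16 (unadjusted p = 0.00885, adjusted p = 0.999). ZMAT3, an RNA-binding target of p53, had a difference of -0.53 ± 0.22 at 2 h, and the ubiquitin ligase MDM2 one of 0.06 ± 0.19 at 2 h and 0.15 ± 0.19 at 8 h. The MDM2 values ran from -0.040 to 0.189 and from 0.045 to 0.280 without single libraries. RPS27L, a p53-induced ribosomal protein homologue, had -0.49 ± 0.34 at 2 h and -0.40 ± 0.34 at 8 h. These values rest on sip53 0 h replicate 1, where it was at 43.9 CPM against 17.2 and 21.8 in the other replicates. Without that library the difference was 0.001 at 2 h and 0.101 at 8 h.

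Gene lists by function had 0 members called in any of the 32 lists at either time. Among the lists with at least 10 measured genes, the median differences farthest from that of all genes at 8 h were those of 12 Kruppel-like factors (-0.302 log2), 13 EGF receptor ligands and receptors (-0.244), 18 YAP targets (-0.188) and 35 genes of the ATF4 stress response and serine synthesis (-0.165). From each sample's median over the list the same differences were -0.235 with an SE of 0.148, -0.215 with 0.092, -0.156 with 0.097 and -0.100 with 0.093. Single libraries moved these medians, to -0.154 without sip53 0 h replicate 1, -0.377 without sip53 0 h replicate 3, -0.121 without siControl 8 h replicate 2 and -0.075 without sip53 8 h replicate 3, in that order. None of these lists was tested, and with 32 lists described some lie far from the median of all genes. At 2 h the lowest value among these lists was that of 26 chaperones and unfolded protein response genes, at -0.190, or -0.133 with an SE of 0.063 from the sample medians. The shorter lists were 3 fibroblast, 2 leukocyte and 1 endothelial marker, with medians of 0.039, -0.399 and -0.221 at 2 h and 0.211, -0.118 and -0.374 at 8 h.

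The ATF4 list holds amino acid transporters and enzymes induced when cells lack amino acids. Of its 35 measured members, 19 were called higher in the averaged effect at 8 h and 0 lower, beside 5.16% and 4.44% of all genes. The median change was 0.42 log2 in siControl and 0.21 in sip53, while the sample medians gave a difference of -0.100 with an SE of 0.093. SLC38A2 and SLC7A11 were its 2 members with an unadjusted p under 0.05 for the difference at 8 h (5.71%, beside 3.81% of all genes), both more negative. SLC7A11, the cystine transporter, was at 176.4, 173.2 and 176.2 CPM in siControl at 0 h and 228.3, 247.3 and 247.3 at 8 h, and in sip53 at 104.4, 116.9 and 100.6 and then 114.2, 120.4 and 107.4. Its difference was -0.37 ± 0.13 (unadjusted p = 0.00763). CHAC1, a glutathione-degrading enzyme of the same response, rose by 1.86 ± 0.15 in siControl and 1.51 ± 0.15 in sip53, a difference of -0.35 ± 0.21 (unadjusted p = 0.104), or -0.452 to -0.224 without single libraries. STC2, described above, is also on this list and its rise was slightly larger in sip53. Over the list the 8 h differences ran from -0.64 to 0.23.

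In the EGF receptor list, 3 of 13 genes had an unadjusted p under 0.05 at 8 h (23.1%), all more negative in sip53, beside 3.81% of all genes, 296 more positive and 287 more negative. The share was larger, at 28.6%, among 14 measured genes of the insulin-like growth factor axis, with 2 more positive and 2 more negative. EGFR was at 680.1, 700.6 and 714.0 CPM in siControl and 828.0, 732.8 and 772.4 in sip53 at 0 h, and at 698.7, 741.1 and 734.4 against 625.4, 703.8 and 549.4 at 8 h. Its difference was -0.37 ± 0.12 (unadjusted p = 0.00732, adjusted p = 0.999). ERRFI1, a feedback inhibitor of the receptor, had a difference of -0.65 ± 0.30. Among the Kruppel-like factors KLF9 had -0.60 ± 0.25, and among YAP targets CCN2, a matricellular growth factor, had -0.61 ± 0.26. SEL1L, which removes misfolded proteins from the endoplasmic reticulum, had -0.34 ± 0.15 at 2 h and -0.41 ± 0.15 at 8 h.

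For growth and housekeeping functions the 8 h medians lay nearer to that of all genes than those of the lists named above as farthest. At 2 h the mitosis median lay farther from that of all genes than those of Kruppel-like factors (-0.087), YAP targets (-0.013) and the ATF4 list (0.026). The median difference at 2 h and at 8 h was -0.068 and -0.051 log2 for 46 DNA replication genes, -0.112 and -0.114 for 38 mitosis genes, and -0.005 and 0.040 for 36 ribosome biogenesis genes. For 24 genes of cholesterol synthesis and uptake it was -0.044 and 0.005, with 0 members at an unadjusted p under 0.05 at either time. HMGCS1, an early enzyme of that pathway, had a difference of -0.21 ± 0.17 at 2 h and 0.06 ± 0.17 at 8 h, or -0.321 to -0.107 and -0.050 to 0.164 without single libraries. The medians of these 4 lists ran from -0.192 (mitosis) to 0.106 (ribosome biogenesis) over both times without single libraries. All 36 ribosome biogenesis genes and 23 of the 24 cholesterol genes had intervals within 1 log2 unit at both times. For 40 cytosolic ribosomal protein genes the median difference was 0.038 at 2 h and -0.102 at 8 h. For 35 nuclear-encoded genes of oxidative phosphorylation it was -0.028 and -0.090. From the sample medians the 8 h values were -0.081 with an SE of 0.153 and -0.066 with 0.108.

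**Figure D5:**
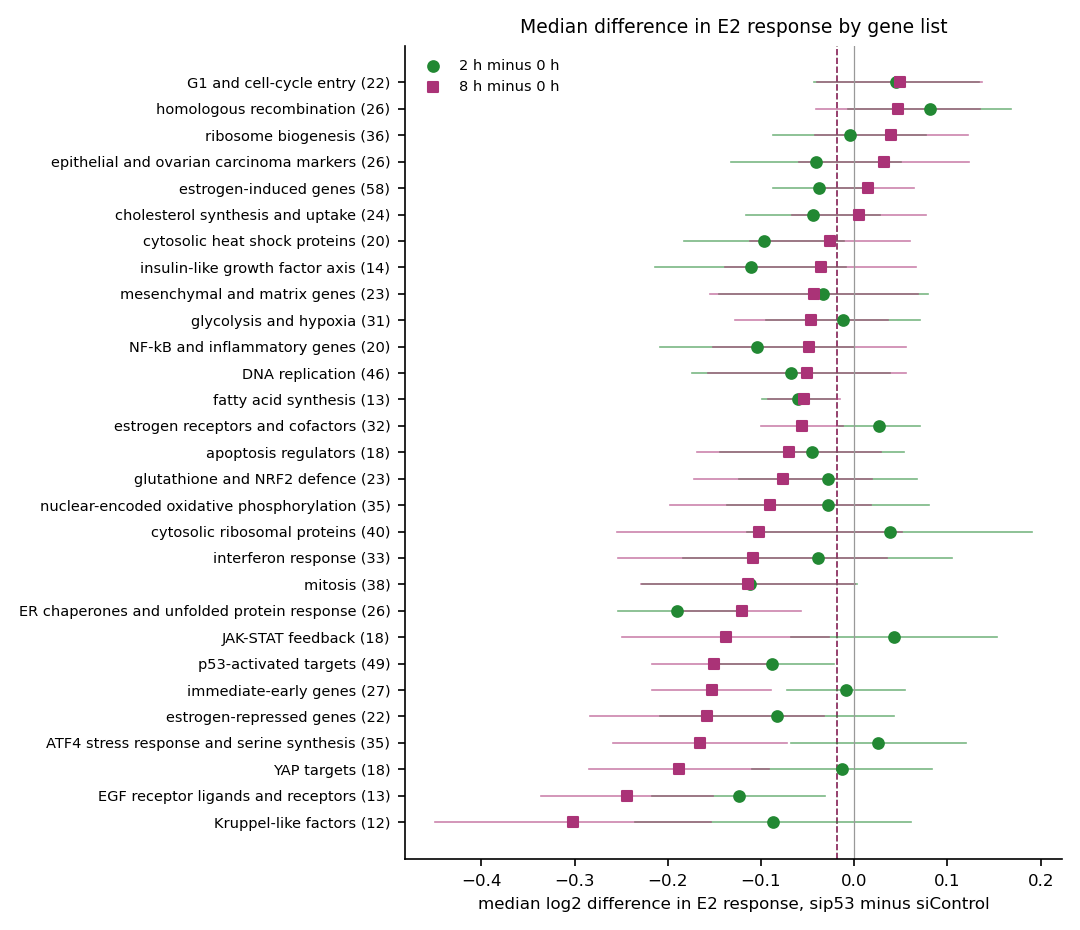
Median log2 difference in E2 response (sip53 minus siControl) over the members of each list with at least 10 measured genes (number in brackets), at 2 h (green circles) and 8 h (purple squares), with the medians of all genes dashed. Bars are 1 SE from the spread of each sample's list median within groups, and most bars cross the dashed line. That SE belongs to the difference of the sample medians, which can depart from the plotted median on which the bar is centred.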

How the data were processed

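The authors sequenced QuantSeq 3′ mRNA libraries of 18 samples. The values deposited by the authors are expected counts from RSEM, all whole numbers, so rounding moved none. RSEM 1.3.3, Bowtie2, cutadapt, MultiQC and build hg19 are named in the submitters' processing notes, without the annotation used. The table has 57736 features, each a set of Ensembl transcripts. GENCODE v29 (GRCh38) gave their names: 52681 matched a single gene and 243 a majority of transcripts, and features without a name held 0.661% of counts. Coordinates are those of GRCh38, and promoter sequences are from RefSeq.

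edgeR 4.0.16 (R 4.3.3) was run on all 18 samples with 1 coefficient per group, TMM scaling and filterByExpr (minimum count 10), which kept 15318 genes. Contrasts were tested with the quasi-likelihood F-test, with Benjamini-Hochberg adjustment over all genes and a threshold of 0.05. The biological coefficient of variation was 15.2%. Standard errors and 95% intervals come from the quasi-likelihood variance. The scripts were tested on simulated counts. Alternatives used limma 3.58.1, DESeq2 1.42.0, other scalings and filters, and left out each library in turn.

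Named genes were the 8 of smallest unadjusted p per direction and time with a mean of at least 3 log2 CPM, the 8 largest averaged E2 effects per direction and time, the member of smallest p in each list, and a fixed set of estrogen, p53 and metabolic genes; not all are described. The comparisons, lists and rules were chosen with earlier results of these data known. Some single genes are not reported here.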

Additional observations from a re-analysis of the deposited data

How the results depend on the processing

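In 28 alternative fits the number of genes called for a difference between the arms was 0 at each time in all but 2. DESeq2 called 1 gene at 2 h and 2 at 8 h, CTAGE8, a multi-copy gene named after its values were seen, being among them at both times. Without the low-count filter 36 genes were called at 2 h, 54 at 8 h, 87 at either time and 42 in the change from 2 h to 8 h, with 1 member of the gene lists at 8 h, TXNIP. The 18 fits that left out 1 library called 0 at every time. For the averaged E2 effect at 2 h the 206 calls became 402 with DESeq2, 711 without the filter, 134 in a fit to the 4 groups alone and 117 to 618 without single libraries. The signed median over E2-responsive genes ran from -0.206 to 0.072 at 2 h and from -0.127 to 0.038 at 8 h without single libraries. Without single libraries the RPS27L difference ran from -0.741 to 0.001 at 2 h and from -0.762 to 0.101 at 8 h, the upper ends without sip53 0 h replicate 1. Counts of genes with intervals within 1 log2 unit stayed within 1.5 times of those reported in every alternative.

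Same-numbered replicates showed no consistent pairing, and the labels do not say whether they belong together. Deviations from group means correlated with a median of 0.034 over 45 same-numbered pairs (-0.342 to 0.376) and 0.010 over 90 others (-0.398 to 0.396). The correlation was over 0.1 in 11 of the 45 pairs and in 30 of the 90. With a replicate block 0 genes were called at 2 h and at 8 h, and 443 and 586 had an unadjusted p under 0.05. Depth and spread limit weakly expressed genes, as given by level above.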
